A study of Homo sapiens with 4 samples.

Results

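The nuclear receptor gene RORA and 9 further genes of the circadian clock (PER1, PER2, PER3, CRY1, CRY2, CLOCK, NR1D1, NR1D2 and NPAS2) were read in HT1080 cells, a human fibrosarcoma line, after 36 h of hypoxia (1% oxygen) or of control conditions (21% oxygen). These 10 genes, of 18417 that could be named, were chosen by name with the rise of RORA in hypoxia already known. Where a gene has several probe sets the one selected on the highest mean over the arrays was to be used, but each of the 10 has only 1, so no measured value entered that step. The values of RORA entered the choice of the set and are given as a description. The other 9 members and the lists of genes set beside them were also chosen with earlier results of these data known. ER-RNA, extracted from an ER (endoplasmic reticulum) fraction isolated with a kit, and total RNA were each hybridised to 1 Affymetrix Human Gene 1.0 ST array per condition. Before ER isolation the cells were treated with cycloheximide, according to the paper. The paper does not state this for total RNA, so the fractions may also differ by this treatment. The groups were ER-RNA in hypoxia, ER-RNA under control conditions, total RNA in hypoxia and total RNA under control conditions, all from cells kept in low-serum medium at 5% carbon dioxide. Each of the 4 arrays carried RNA pooled from 5 experiments of this single cell line, so the arrays hold no measure of how experiments varied, and p-values are not given. Only the 36 h point was read, so no rhythm could be followed, and a change in clock phase cannot be told apart from a change in level. The labels do not give the time of day at which the pooled experiments were harvested.

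The circadian clock is a transcriptional feedback loop that most cells carry. CLOCK, or its relative NPAS2, pairs with BMAL1 and binds E-box motifs to activate the PER and CRY genes, whose products then repress that pair. In a second loop the nuclear receptor RORα, encoded by RORA, activates BMAL1 through ROR response elements, and REV-ERBα and REV-ERBβ, encoded by NR1D1 and NR1D2, repress it through the same elements. CLOCK and NPAS2 belong to the bHLH-PAS family, as do the subunits of the hypoxia-inducible factor HIF, which binds the core of the hypoxia response element.

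In GRCh38.p14 the annotation places RORA at chr15:60488284-61229302, PER1 at chr17:8140472-8152404, PER2 at chr2:238244044-238300065 and PER3 at chr1:7784291-7845177. It places CRY1 at chr12:106991364-107093549, CRY2 at chr11:45847118-45883244, CLOCK at chr4:55427903-55546909 and NPAS2 at chr2:100818723-100996829. NR1D1 lies at chr17:40092793-40100589 and NR1D2 at chr3:23945286-23980617. The sources used here do not say which exons the array's probes hit, so isoforms are not separated.

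The 250 bases before an annotated start (RefSeq, GRCh38.p14) are shown for 3 genes: RORA and CRY1, the members that passed the call rule in hypoxia, and PER1, as a member whose window holds a canonical E-box and a receptor half-site. Each is printed 5′ to 3′ on the strand of its gene, and capitals mark motif matches on either strand. The RORA window is chr15:60627531-60627780 (minus strand), 601.5 kb inside the 741 kb gene, so starts of longer RORA transcripts were not searched. The CRY1 window is chr12:107093550-107093799 and the PER1 window chr17:8152405-8152654 (both minus strand).
RORA: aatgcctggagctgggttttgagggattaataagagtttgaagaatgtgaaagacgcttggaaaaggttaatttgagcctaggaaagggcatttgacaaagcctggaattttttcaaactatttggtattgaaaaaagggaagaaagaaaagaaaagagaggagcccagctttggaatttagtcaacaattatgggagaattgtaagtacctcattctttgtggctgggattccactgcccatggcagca
CRY1: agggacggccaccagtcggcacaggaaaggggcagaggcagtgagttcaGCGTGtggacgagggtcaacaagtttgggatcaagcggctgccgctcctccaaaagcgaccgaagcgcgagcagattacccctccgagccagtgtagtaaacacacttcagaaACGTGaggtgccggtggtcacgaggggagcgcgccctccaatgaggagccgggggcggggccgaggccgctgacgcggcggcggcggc
PER1: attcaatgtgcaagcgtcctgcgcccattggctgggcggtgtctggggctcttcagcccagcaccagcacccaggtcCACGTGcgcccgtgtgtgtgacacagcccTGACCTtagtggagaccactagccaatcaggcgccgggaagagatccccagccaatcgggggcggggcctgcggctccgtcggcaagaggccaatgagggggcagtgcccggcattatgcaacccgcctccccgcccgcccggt

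The motifs searched, on both strands, were CACGTG (canonical E-box), ACGTG and GCGTG (core of the hypoxia response element), AGGTCA (half-site of ROR and REV-ERB receptors), TTATGTAA and TTACGTAA (D-box) and TGACGTCA (cAMP response element). The ACGTG core lies within CACGTG, so every E-box counts as a core too. All 10 genes matched the table, which lists 14 windows for them, 1 for 6 genes and 2 each for PER3, CRY2, CLOCK and NR1D2. The RORA window, with 40% G or C, held none of these motifs. In the PER1 window an E-box began 173 bases before the start and a receptor half-site 144 bases before it. The second NR1D2 window held 2 E-boxes, beginning 155 and 105 bases before the start, and a D-box at 194 bases. In the CRY1 window 2 response element cores lay outside any E-box, at 201 and 88 bases. Over all 14 windows, 2 held an E-box (14.3%, against 6.34% of the 35116 windows in the table) and 8 a response element core outside an E-box (57.1%, against 40.2%). A receptor half-site was found in 3 (21.4%, against 12.1%), a D-box in 2 (14.3%, against 0.94%) and a cAMP response element in 0 (against 1.65%). These matches describe the letters in the windows, and windows of 1 gene overlap or lie close together. The PER3 windows overlap and share a core match, and both CRY2 windows hold a half-site. G or C made up 40% of the RORA window, 44.8% of the first CRY2 window and 64.8% to 81.6% of the others. The median over all windows was 58%, and the shares were not matched for this content.

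**Figure D1:**
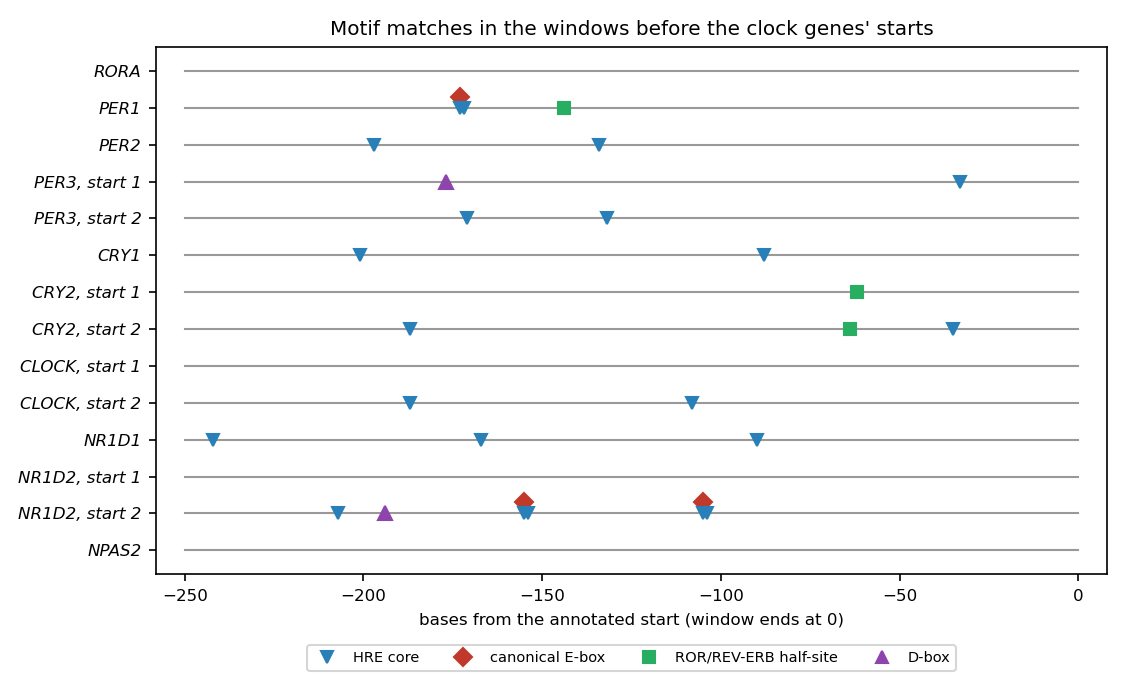
Positions of motif matches (symbols) in the 250 bases before each annotated start of the 10 clock genes, with the distance from the start in bases on the x axis and 1 line per window. The lines of RORA, NPAS2 and the first windows of CLOCK and NR1D2 are empty, and the E-boxes lie in PER1 and in the second window of NR1D2.

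The values are log2 RMA values, as the authors normalized them, over 33297 probe sets. The array medians were 6.34 in hypoxia and 6.25 under control conditions in ER-RNA, and 7.49 in hypoxia and 7.41 under control conditions in total RNA, so hypoxia was compared with control within each fraction. Expressed genes were those above the array median on 1 or both arrays of the fraction. A change was called, following the thresholds in the methods, where the fold change was over 1.4 in either direction and the z-score over 3 in size. The z-score divides the log2 fold change by an SD that a loess curve gives for probe sets of like mean on that pair of arrays. This SD is between the values of a probe set on the pair, not the SD of fold changes over probe sets. An alternative SD, a scaled median absolute deviation (MAD), was taken over the log2 fold changes themselves, so its z-scores are on another scale. The z-score describes the pair and is not a test over experiments. Over all probe sets this rule called 368 up and 1498 down in ER-RNA, and 717 up and 1285 down in total RNA. The paper reports other counts, with fewer down in each fraction, so the calls here are not those of the paper. The hypoxia markers EGLN3, BNIP3, NDRG1 and PDK1 were called up in both fractions (4 of 4), with a median log2 fold change of 1.33 in ER-RNA and 1.55 in total RNA. The authors had already named these genes among those raised in both fractions on the same arrays, so the calls are not an independent check. Of 6 mesenchymal markers 5 were expressed in ER-RNA and 4 in total RNA, while of 4 epithelial markers only KRT19 was, in both fractions. The mesenchymal marker VIM (vimentin) was called up in ER-RNA (1.49-fold, z-score 3.31) and in total RNA (1.51-fold, z-score 3.47). None of 3 leukocyte and 4 endothelial markers was expressed in total RNA, whereas the leukocyte marker CD14 and the endothelial marker PECAM1 were in ER-RNA. EPCAM, PTPRC and TEK, picked from these lists after their values were seen, lay below the median on all 4 arrays. Whether other cell types have a part in any value was not tested. Fewer cells and less RNA per cell cannot be told apart in such bulk samples.

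All 10 clock genes were expressed in both fractions. RORA was called up in ER-RNA and in total RNA, CRY1 was called down in ER-RNA, and no other member was called in either fraction. In ER-RNA, 1 of 10 was called up and 1 of 10 down, against 1.43% up and 9.62% down of the 11876 expressed genes. In total RNA, 1 of 10 was called up and 0 down, against 2.70% up and 8.60% down of 11530 expressed genes. By the fold of 1.4 alone, 1 member was higher (RORA) and 2 were lower (CRY1 and CLOCK) in ER-RNA, where 6.53% of expressed genes were past that fold upwards and 21.4% downwards. In total RNA, 3 were higher (RORA, PER2 and PER3) and 2 lower (CRY1 and NPAS2) by that measure, against 6.20% and 18.6%. The share of members called down in ER-RNA was thus near that of all genes, and nothing is read from the RORA calls, since RORA was known to rise. The 10 had a median log2 fold change of 0.10 in ER-RNA, beside -0.04 over the expressed genes, and of 0.18 in total RNA, beside -0.06. Without RORA the other 9 had medians of 0.06 (ER-RNA) and 0.05 (total RNA).

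**Figure D2:**
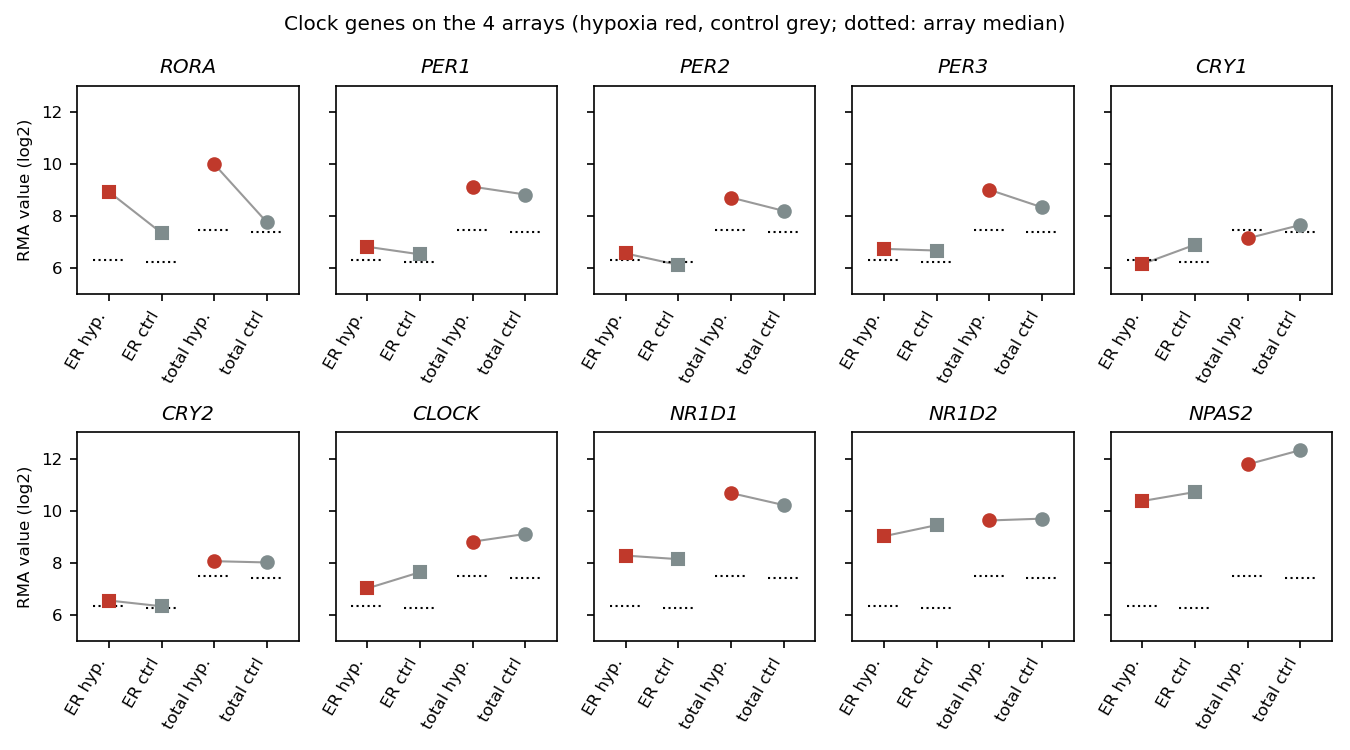
Log2 RMA values of the 10 clock genes on the 4 arrays (1 panel per gene, squares for ER-RNA, circles for total RNA, red for hypoxia, grey for control, lines joining a pair, dotted marks for the array medians). RORA has the steepest lines in both fractions, and the hypoxia points of CRY1 lie below the dotted medians. Levels are not comparable between genes, and there are no replicates and so no error bars.

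RORA, which encodes the activating receptor of the second loop, had log2 values of 8.94 in hypoxia and 7.36 under control conditions in ER-RNA. In total RNA its values were 10.00 in hypoxia and 7.77 under control conditions. The hypoxia value was the higher in both fractions, by 2.99-fold in ER-RNA (z-score 5.50) and 4.70-fold in total RNA (z-score 8.56). Only 24 expressed genes measured here had a larger log2 fold change in ER-RNA, and 6 did in total RNA. Relative to the median of its array, RORA stood at 2.60 in hypoxia and 1.10 under control conditions in ER-RNA, and at 2.51 in hypoxia and 0.36 under control conditions in total RNA. The 2 hypoxia arrays were thus close to each other on this scale, while the control arrays differed by 0.74. Its call held under each of the 12 alternative settings tried, with z-scores of 3.07 to 5.81 in ER-RNA and 4.98 to 8.88 in total RNA.

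The repressors that share binding elements with RORα showed no change that was called. NR1D1 had 8.27 in hypoxia and 8.14 under control conditions in ER-RNA, and 10.68 and 10.21 in total RNA. The log2 fold change of NR1D1 in ER-RNA was 0.14 (z-score 0.47). In total RNA it was 0.46 (z-score 1.66), a 1.38-fold difference just short of the threshold of 1.4, which loess within the pair (0.55) and quantile normalization (0.64) took past that fold without a call. NR1D2 had 9.02 in hypoxia and 9.45 under control conditions in ER-RNA, and 9.62 and 9.69 in total RNA. The log2 fold change of NR1D2 in ER-RNA was -0.43 (z-score -1.37). In total RNA it was -0.07 (z-score -0.25), where quantile normalization turned it to 0.07. The 2 REV-ERB genes therefore had opposite signs in ER-RNA, both within the fold threshold.

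CLOCK and NPAS2, the alternative partners of BMAL1, were both lower in hypoxia in each fraction, without a call. CLOCK had 7.02 in hypoxia and 7.64 under control conditions in ER-RNA (0.650-fold, z-score -2.43), and 8.81 and 9.11 in total RNA (0.814-fold, z-score -1.13). NPAS2 had 10.37 in hypoxia and 10.72 under control conditions in ER-RNA (0.787-fold, z-score -1.16), and 11.78 and 12.32 in total RNA (0.684-fold, z-score -2.45). CLOCK was past the fold of 1.4 in ER-RNA but not in total RNA, and NPAS2 in total RNA but not in ER-RNA. Whether the 2 fractions differ for either gene was not tested.

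Among the repressors of the first loop, the PER genes had positive log2 fold changes as deposited, of which that of PER3 in ER-RNA changed sign with the scaling, and CRY1 had negative ones. PER1 had 6.83 in hypoxia and 6.54 under control conditions in ER-RNA, and 9.13 and 8.83 in total RNA, which is 1.22-fold and 1.23-fold. PER2 had 6.57 in hypoxia and 6.13 under control conditions in ER-RNA, where the control value lay below the array median, and 8.72 and 8.21 in total RNA. It stood at 1.36-fold in ER-RNA (z-score 1.99) and 1.43-fold in total RNA (z-score 2.09). PER3 had 6.75 in hypoxia and 6.68 under control conditions in ER-RNA, and 9.02 and 8.34 in total RNA. Its 1.60-fold in total RNA gave the z-score nearest to an upward call among the members not called (2.65), whereas in ER-RNA it was at 1.05-fold with a log2 fold change of 0.06, which turned to -0.02 when arrays were centred on their medians and to -0.01 after loess within the pair.

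CRY1, a strong repressor of CLOCK and BMAL1, had 6.16 in hypoxia and 6.91 under control conditions in ER-RNA. In total RNA it had 7.15 in hypoxia and 7.67 under control conditions. It fell to 0.598 of control in ER-RNA (z-score -3.26) and was at 0.700 in total RNA (z-score -2.58), which was past the fold threshold but not the z threshold. Both hypoxia values lay below the median of their array, and in ER-RNA CRY1 was no longer called with a filter on both arrays, with a filter at the 75% quantile or with an SD fitted on expressed probe sets only, where its z-score was -2.83. In total RNA CRY1 was called down after median centring, quantile normalization or loess within the pair (z-scores -3.17, -3.13 and -3.15). Its paralogue CRY2 had 6.55 in hypoxia and 6.33 under control conditions in ER-RNA, and 8.06 and 8.01 in total RNA. CRY2 was at 1.17-fold in ER-RNA (z-score 0.98) and 1.03-fold in total RNA (z-score 0.22), where median centring turned its log2 fold change of 0.05 to -0.03.

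**Figure D3:**
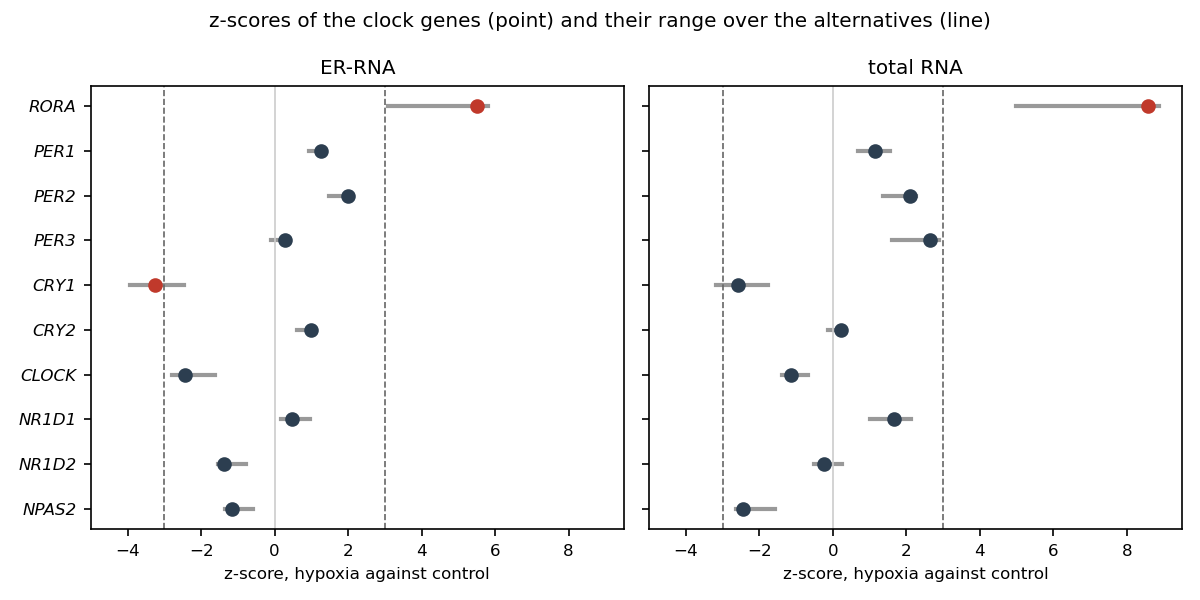
z-scores of the 10 clock genes, hypoxia against control, in ER-RNA (left) and total RNA (right). Points are the main values, red where called, lines run over the 12 alternative settings, and dashed lines mark z-scores of -3 and 3. Only RORA lies past a dashed line over its whole range, and the CRY1 line crosses -3 in both fractions.

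The log2 fold changes had the same sign in ER-RNA and total RNA for all 10 members as deposited (6 higher and 4 lower in hypoxia), although that of PER3 in ER-RNA and those of CRY2 and NR1D2 in total RNA changed sign under the scalings named above. Over the 10851 genes expressed in both fractions, 80.3% had the same sign. Since total RNA includes the RNA of the ER, the fractions carry shared changes and this is not independent evidence, and they need not share a scale. The fractions may also differ by the cycloheximide treatment, and its part in any difference between them was not tested. The log2 fold change was lower in ER-RNA than in total RNA for 8 of 10 members, with a median difference of -0.28, beside -0.008 over the genes expressed in both. RORA had the lowest difference, at -0.65, followed by PER3 at -0.61, while CRY2 (0.17) and NPAS2 (0.20) had positive ones. Over the genes expressed in both fractions, the central 95% of this difference ran over -0.64 to 0.56, so RORA lay just below that range and PER3 just within it. Most genes called up in total RNA had a lower fold in ER-RNA: of the 272 called up in total RNA and expressed in both fractions, 82.7% did so, with a median difference of -0.34, and 15.1% lay below RORA. With medians of all arrays set to 0, RORA in ER-RNA exceeded total RNA by 0.09 in hypoxia and by 0.74 under control conditions. For NR1D2 the same differences were 0.54 in hypoxia and 0.91 under control conditions, and for CRY1 0.16 and 0.39. The remaining 7 members lay lower in ER-RNA than in total RNA on this scale in both conditions. NR1D1 was at -1.25 in hypoxia and -0.92 under control conditions, and PER3 at -1.12 and -0.51.

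**Figure D4:**
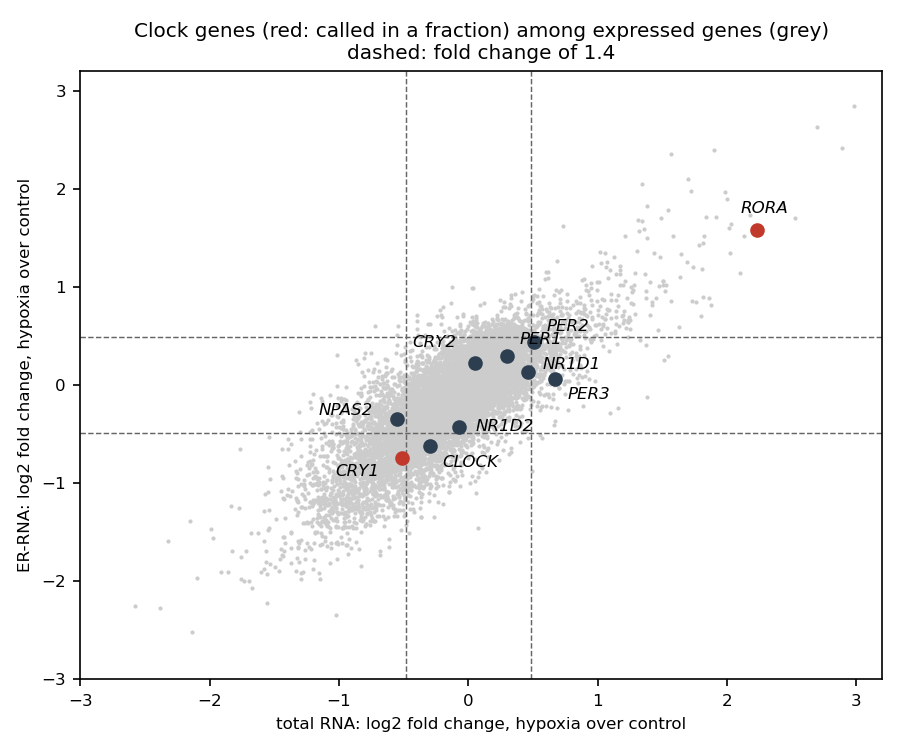
Log2 fold change, hypoxia over control, in total RNA (x axis) and ER-RNA (y axis) for the 10 clock genes (large points, red where called in a fraction) and the 10851 genes expressed in both fractions (grey). RORA lies at 2.23 and 1.58, far from the other members, which all lie between -0.55 and 0.67 in total RNA and between -0.74 and 0.44 in ER-RNA.

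The profile of RORA over the 4 arrays, each gene centred on its own mean, was most like those of GBE1, the glycogen branching enzyme, and UCN2, the peptide hormone urocortin 2. Their Euclidean distances to RORA were 0.20 and 0.21 on the log2 scale, where the median over 10850 expressed genes was 2.18. INSIG2, which restrains sterol synthesis, followed at 0.34, EGLN3, a HIF prolyl hydroxylase, at 0.46 and ALDOC, an aldolase of glycolysis, at 0.47. All 5 were called up in both fractions, which follows from their being chosen for likeness to RORA. GBE1 had 10.23 in hypoxia and 8.59 under control conditions in ER-RNA, and 11.30 and 9.27 in total RNA. The members nearest to RORA were PER3 (1.97), PER2 (2.01) and CRY2 (2.01), and the farthest was CRY1 (2.55). With 4 arrays, such likeness says only that the values moved together here.

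The other clock genes were taken from 3 lists, of which 37 of 43 genes have a probe set that names them alone. Of the 37, 33 were expressed in each fraction. In ER-RNA, 1 of the 37 was called up and 3 down, and in total RNA 3 were called up and 3 down. The background shares are those given above (1.43% up and 9.62% down in ER-RNA, 2.70% up and 8.60% down in total RNA), and the counts called down lie near them. The 37 had a median log2 fold change of -0.14 (ER-RNA) and -0.06 (total RNA). Of 10 further clock transcription factors, 1 was called up in ER-RNA and 2 in total RNA, and none was called down. BHLHE40, which encodes the E-box repressor DEC1, had 10.34 in hypoxia and 9.35 under control conditions in ER-RNA, and 11.72 and 10.77 in total RNA. It rose 1.98-fold in ER-RNA (z-score 3.17) and 1.93-fold in total RNA (z-score 3.67). BHLHE40 was called in neither fraction at a fold change over 2 or with an SD from scaled MAD, and not in ER-RNA after median centring. NFIL3, which encodes a repressor that binds D-boxes, had 9.42 in hypoxia and 8.60 under control conditions in ER-RNA, and 9.98 and 9.03 in total RNA. The rise of NFIL3 was 1.94-fold in total RNA (z-score 3.46), while its 1.76-fold in ER-RNA was not called (z-score 2.63).

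BMAL1, the partner of CLOCK and NPAS2 and the target of the RORA loop, had 6.75 in hypoxia and 7.08 under control conditions in ER-RNA, and 7.54 and 7.82 in total RNA. It was at 0.798-fold in ER-RNA (z-score -1.36) and 0.827-fold in total RNA (z-score -1.30) and was called in neither. Its paralogue BMAL2 was at 0.795-fold and 0.906-fold, and BHLHE41, the paralogue of BHLHE40, had a log2 fold change of 0.15 in ER-RNA and -0.09 in total RNA. RORB, the paralogue of RORA, stood at 0.06 and -0.14 on the same scale. The D-box activators DBP and TEF stood at -0.02 and 0.35 in ER-RNA, and neither was called in either fraction. CIART, a further repressor of the loop, had log2 fold changes of 0.42 (ER-RNA) and 0.39 (total RNA), without a call. HLF lay below the expression filter in both fractions.

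Among 14 kinases and turnover factors of clock proteins (11 expressed in each fraction), PRKAA2, a catalytic subunit of the energy sensor AMPK, was the only gene called. It had 7.30 in hypoxia and 6.71 under control conditions in ER-RNA, and 9.23 and 8.07 in total RNA, where it rose 2.24-fold (z-score 4.59), with 1.51-fold in ER-RNA (z-score 2.46). Its paralogue PRKAA1 had a log2 fold change of -0.61 in ER-RNA and -0.11 in total RNA. The group's median log2 fold change was -0.28 (ER-RNA) and -0.09 (total RNA). Over all expressed genes, 2.70% were called up in total RNA.

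Of 13 co-regulators and accessory factors, none was called up and the same 3 genes were called down in each fraction. Over all expressed genes, 9.62% were called down in ER-RNA and 8.60% in total RNA. Total RNA includes ER-RNA, so the shared calls are not independent, and nothing is read from so short a list. TIPIN, a partner of TIMELESS that also guards replication forks, fell to 0.513 of control in ER-RNA and 0.346 in total RNA. SFPQ, an RNA-binding protein found in PER complexes, fell to 0.463 and 0.502, with 7.64 in hypoxia and 8.75 under control conditions in ER-RNA. PPARGC1A, a co-activator of ROR receptors, fell to 0.587 and 0.516. The hypoxia values of TIPIN (6.26 in ER-RNA and 6.69 in total RNA) and PPARGC1A (5.78 and 6.64) lay below their array medians, so neither is called when both arrays must lie above them. TIMELESS itself was at a log2 fold change of -0.23 in ER-RNA and -0.47 in total RNA and was not called.

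**Figure D5:**
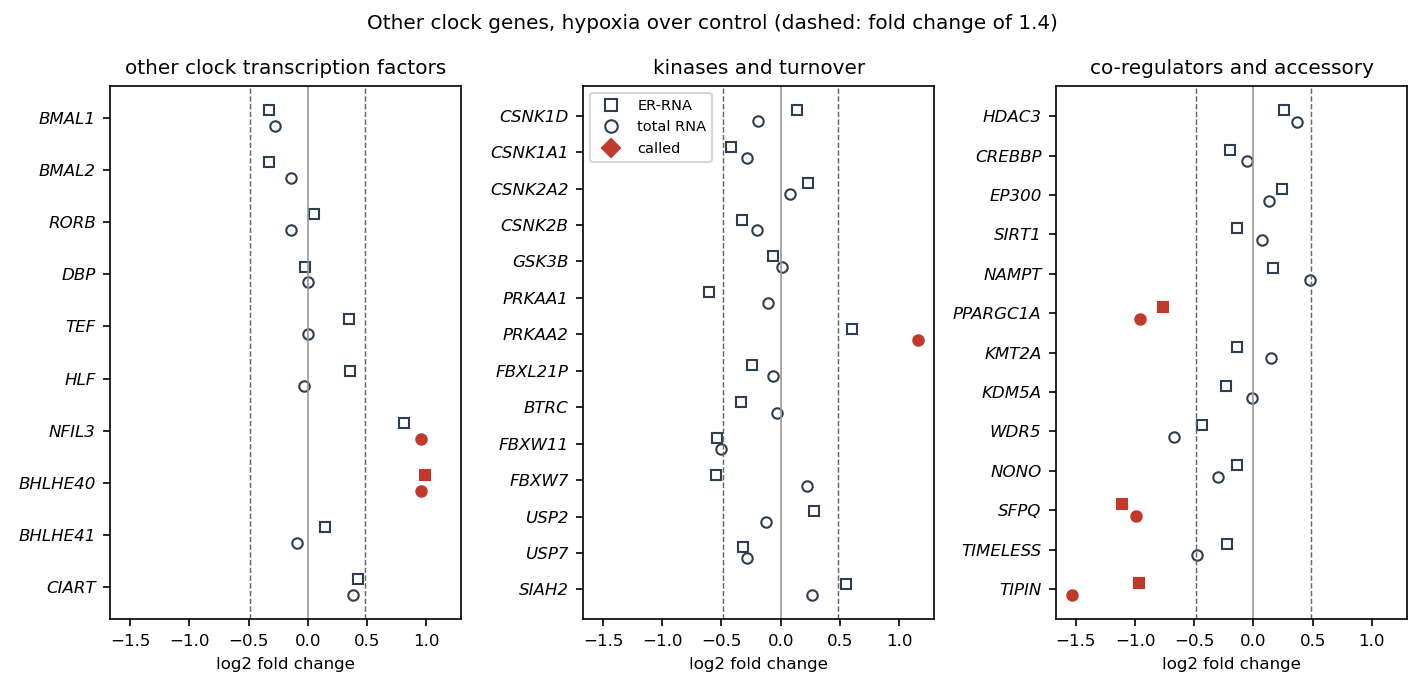
Log2 fold change, hypoxia over control, of 37 further clock genes in 3 lists, in ER-RNA (squares) and total RNA (circles), with called values in red and dashed lines at the fold of 1.4. BHLHE40, NFIL3 and PRKAA2 carry red symbols on the right, and PPARGC1A, SFPQ and TIPIN on the left.

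Relatives by protein family were set beside the members. Of 13 bHLH-PAS relatives of CLOCK and NPAS2, 9 were expressed in each fraction, and only expressed genes could be called. None was called in ER-RNA, and in total RNA only ARNT2, a partner of bHLH-PAS factors, was called, falling to 0.598 of control. Of 35 further nuclear receptors, 19 were expressed in each fraction. Of these, 1 was called up in ER-RNA, and 2 up and 2 down in total RNA. Over all expressed genes the shares were 1.43% up and 9.62% down in ER-RNA, and 2.70% up and 8.60% down in total RNA. RARB, a retinoic acid receptor, rose in both, by 1.81-fold in ER-RNA and by 1.70-fold in total RNA. NR4A2, an orphan receptor, rose 1.79-fold in total RNA, where RARG fell to 0.457 and the vitamin D receptor gene VDR to 0.539. No other receptor measured here reached the fold of RORA in either fraction, but RORA was chosen with its rise known, so nothing is read from this. THRA, which overlaps NR1D1 on the opposite strand, had 7.43 in hypoxia and 7.81 under control conditions in ER-RNA, and 8.93 and 9.34 in total RNA, and was called in neither.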

How the data were processed

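ER-RNA and total RNA of each condition were measured on 4 Affymetrix Human Gene 1.0 ST arrays, grouped by their labels. The deposited values are log2 values that the authors made by RMA, in Partek 6.4 per the submitters' processing notes; the sources used here do not say if this was 1 run for all arrays. Genes were named from the platform annotation for 19460 probe sets that name 1 gene, updated through RefSeq for 19429 of them. Calls were made across all 33297 probe sets with R 4.3.3 and limma 3.58.1, by fold change, z-score (loess span 0.75, degree 2) and expression filter. Shares of genes used 1 probe set per gene, the one with the highest mean. In ER-RNA 1 probe set had a fitted SD not above 0 and was not called. The call rule was tested on simulated data. Alternatives covered normalization, filter, SD model, thresholds and probe sets. No test within a fraction is possible with 1 array per group. The fractions were not used as replicates of each other, because total RNA includes ER-RNA, and precision is limited by the number of arrays. The form of the SD fit is a reading of the methods, and the counts called differ from those the paper reports.

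The members and lists were chosen with earlier results of these data known. The text names all members, the called genes of each list, the expressed clock transcription factors and the 5 genes most like RORA. Others (HLF, PRKAA1, TIMELESS, THRA, KRT19, CD14, PECAM1, EPCAM, PTPRC and TEK) were named after their values were seen. The hypoxia markers were named as a list. Motifs were counted as exact matches.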

Additional observations from a re-analysis of the deposited data

How the results depend on the processing

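The 10 members were read under 12 alternatives, 1 of them (an SD fitted on expressed probe sets only) chosen after seeing the data. The calls of RORA, chosen with its rise known, held in all of them. Its log2 fold change was 1.50 to 1.62 in ER-RNA and 2.15 to 2.40 in total RNA. Of 240 member values, 227 kept their sign and call, or had no call in either setting, 5 lost a call (all CRY1 in ER-RNA) and 8 gained one. No called value changed sign.

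The count of members called down in ER-RNA, 1 in the main setting, was 0 with the 75% quantile filter, with both arrays above the 50% quantile, at a fold change over 2, with the scaled MAD in place of the loess SD, with an SD fitted on expressed probe sets only, and 2 by fold change alone. In total RNA it was 0 in the main setting, 1 after median centring, quantile normalization or loess within each pair, and 2 by fold change alone, where 3 members were called up instead of 1. The median over members in total RNA, 0.18, moved to 0.049 without RORA, a setting chosen after seeing the data, and reached 0.24 after quantile normalization. The median in ER-RNA, 0.10, fell to 0.017 after median centring, which lowers every log2 fold change by 0.08.

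The settings for the other clock genes were also chosen after seeing the data. The 3 called down in each fraction became 1 in each fraction with the 75% quantile filter, with both arrays above the 50% quantile and at a fold change over 2, and 5 in each by fold change alone. With the scaled MAD, 1 was called down in ER-RNA. The 1 called up in ER-RNA became 0 after median centring, at a fold change over 2 and with the scaled MAD, 2 after quantile normalization and 4 by fold change alone. The 3 called up in total RNA became 1 at a fold change over 2 and 0 with the scaled MAD. The causes were not tested, and the filters and thresholds by their construction leave fewer genes. No paired analysis was possible because each fraction holds 1 array per condition, and no replicate could be left out; a fit with the fraction as a block was not run, since total RNA includes ER-RNA. Values near the array medians, such as those of CRY1, CRY2 and PER2 in ER-RNA, may be limited by low signal, which was not tested.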
